A study of Homo sapiens
Mus musculus with 2 samples.

Results

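Histone genes are described here across the cell classes of the mouse colonic epithelium. The members were all rows shared by both count tables whose symbol starts with Hist followed by a cluster number and h, or with H2af, H3f3 or H1f. This rule found 83 of 25504 genes and used no measured value. Of these, 68 have Hist symbols, the family of the replication-coupled genes, and 15 are replacement histone genes with H1f, H2af or H3f3 symbols.

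The study took colonic epithelial cells from 1 untreated wild-type (WT) C57Bl6 mouse and profiled different cells of that animal as 2 libraries, replicates 1 and 2, in a single run. Cells of the human leukaemia line K562 had been mixed in, and the K562 cells were not analysed here. The libraries form 1 group, so the comparisons below are between cell classes within the libraries. In the main test the mean shift of each library was taken out. Its p-values therefore rest on the scatter that then remained among the class values and on a dispersion shared over the tested genes. This scatter may be technical, and no p-value covers differences between animals, as all colonic cells came from 1 mouse.

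Each nucleosome wraps DNA around a core of H2A, H2B, H3 and H4 proteins, and the linker histone H1 binds outside it. Replication-coupled histone genes lie in clusters and are transcribed mainly while DNA is copied; most of their mRNAs end in a stem-loop instead of a poly(A) tail. Replacement histone genes lie apart, give polyadenylated mRNAs through the whole cell cycle and encode variants such as H2A.Z, macroH2A, H2A.X and the H3 variant of active genes. In the colon, dividing cells lie in the lower crypt, and their progeny become absorptive colonocytes or secretory cells such as goblet cells. The labels give CEL-Seq amplification of the RNA, a method that starts from poly(A) tails. The Hist rows are therefore taken to count mainly the polyadenylated part of their transcripts, which was not tested.

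Replicate 1 held 1738 barcodes with 8602490 unique molecular identifiers (UMIs, each marking a captured molecule), and replicate 2 held 664 barcodes with 3951918 UMIs. No barcode had the same counts in both libraries. Without the top 5% by doublet score, 1651 and 631 barcodes were clustered on genes that exclude all histone genes. The 5 epithelial classes with at least 10 cells in each library were cycling-like (98 and 40 cells), crypt-like (153 and 49), goblet-like (293 and 76), deep crypt secretory-like (254 and 72) and colonocyte-like cells (538 and 164).

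The cycling-like class was led by Hmgb2, Top2a and Cdk1, and its summed cycling markers stood at 8134 and 6954 UMIs per 1000000 UMIs (CPM) in replicates 1 and 2, against 1540.2 and 1179 CPM in crypt-like cells and at most 810.2 CPM in the 3 other classes. The crypt-like class was led by Csrp2, Reg3b and Cftr, and its summed crypt markers stood at 2363 and 1811 CPM, below those of cycling-like cells at 3052 and 2399 CPM and near those of deep crypt secretory-like cells at 1947 and 1767 CPM; goblet-like and colonocyte-like cells had 385 to 859.5 CPM. The crypt-like class was 1 cluster, and its name was not stable. At resolution 0.5 no cluster took it. At resolution 2 a cluster of 40 and 7 cells did, while the cluster of 99 and 23 cells led by Reg3b, Csrp2 and Cftr stayed unnamed. Without the doublet filter the cluster led by Reg3b, Csrp2 and Cftr stayed unnamed too. Another cluster, of 51 and 13 cells led by Cdkn1c, then took the name. Summed colonocyte markers stood at 9285 and 9359 CPM in crypt-like cells. They stood at 4350 and 3538 CPM in cycling-like, 4310 and 3592 in deep crypt secretory-like, 15432 and 14389 in goblet-like and 65229 and 52744 CPM in colonocyte-like cells. The cycling-like class also had the highest median doublet scores, 0.58 and 0.6, against 0.32 to 0.50 in the 4 other classes. Its summed goblet and deep crypt secretory markers stood at 7858 and 11249 and at 6229 and 12030.2 CPM, above those of crypt-like cells at 2845 and 3186 and at 1218 and 2373 CPM. The part of these mixed signals in the histone values was not tested. The UMIs of each class in each library were summed, which gave 10 sums of 352196 to 2773270 UMIs, and 8020 genes that took no part in the clustering were tested with edgeR.

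Over all barcodes, the members held 38296 UMIs, or 3107 CPM in replicate 1 and 2927 CPM in replicate 2. Replacement genes made up 79.4% of these UMIs and Hist genes 20.6%. In each kind a pair of genes dominated. H3f3a and H3f3b, which encode the same H3 variant, held 71.7% of the replacement UMIs. Hist1h1c, a linker H1 gene, and Hist1h2bc, an H2B gene, held 73.0% of the Hist UMIs; both are known to give polyadenylated mRNA in differentiated cells. UMIs were not corrected for transcript length, so levels are compared below between classes for 1 gene or 1 set.

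Most Hist rows were close to empty. Of the 68, 6 had no UMI in either library (Hist1h2ai, Hist1h2al, Hist1h2bn, Hist1h3h, Hist1h3i and Hist2h2aa2), 39 had 1 to 19, 12 had 20 to 49, and 11 had at least 50. Of the 15 replacement rows, 5 had 1 to 19 UMIs, 2 had 20 to 49 and 8 had at least 50. The 19 members with at least 50 UMIs are described by name; 28 members, 18 Hist and 10 replacement, passed the filter of 20 UMIs over the 10 sums. Near-identical Hist copies, processed copies of H3f3a and H2afz and reads of human histone genes could share counts, and how such reads were assigned is not known here.

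The summed replacement genes were higher in cycling-like cells than in any other class in both libraries, at 4468 and 4290.2 CPM in replicates 1 and 2. They stood at 3271 and 2665 CPM in crypt-like, 2042 and 1776 in goblet-like, 2832 and 2687 in deep crypt secretory-like and 1770.1 and 1609 CPM in colonocyte-like cells. Goblet-like and colonocyte-like cells were the lowest classes in both libraries, and crypt-like and deep crypt secretory-like cells overlapped. Without H3f3a and H3f3b, the sum was 1651 and 1726 CPM in cycling-like and 317 and 327 CPM in colonocyte-like cells.

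The summed Hist genes differed far less between the same classes, as genes of opposite pattern add up in it. Cycling-like cells had 697 and 701 CPM, crypt-like 659.9 and 548, goblet-like 647 and 642, deep crypt secretory-like 461 and 399 and colonocyte-like cells 728 and 679 CPM. Hist1h1c and Hist1h2bc together stood at 187 and 298 CPM in cycling-like cells, the lowest class in replicate 1, and at 618 and 569.5 CPM in colonocyte-like cells, the highest in both libraries. The 66 other Hist genes together ran the other way, at 510.2 and 403 CPM in cycling-like, 183 and 181 in crypt-like, 103 and 148 in goblet-like, 143 and 176 in deep crypt secretory-like and 111 and 109.7 CPM in colonocyte-like cells. With Hist1h2ap taken out too, cycling-like cells still had 311 and 267 CPM, against 167 and 154 CPM in crypt-like and 107 and 106 CPM in colonocyte-like cells.

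**Figure D1:**
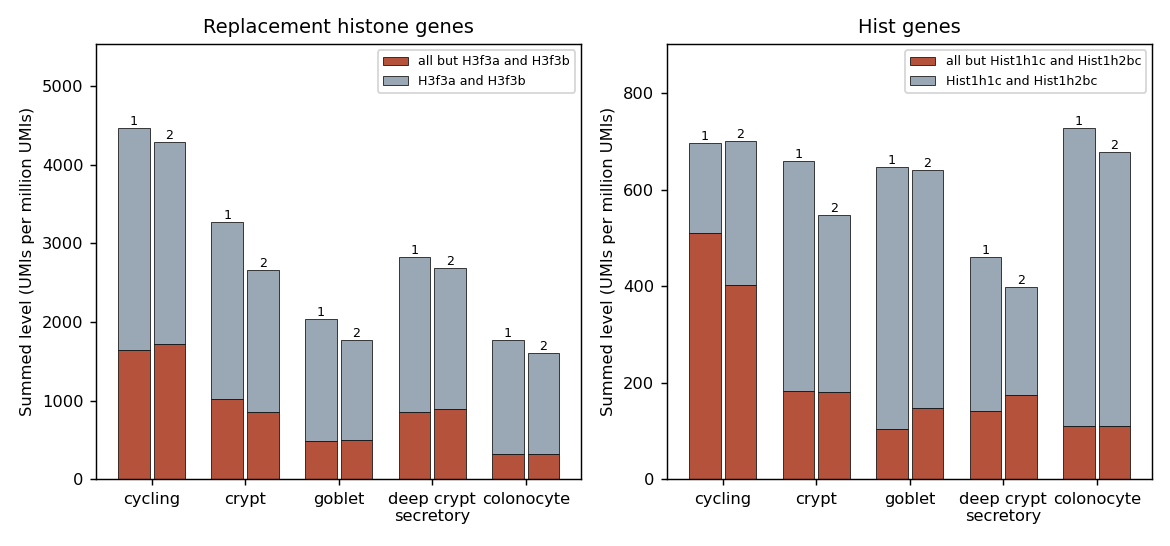
Summed level of replacement (left) and Hist (right) genes in UMIs per 1000000 UMIs, by cell class; each bar is 1 library (replicate 1 or 2, numbered on top), divided into the pair of most abundant genes (grey) and all others (red). The replacement bars are tallest in cycling-like cells, at 4468 and 4290.2, while the whole Hist bars are tallest in colonocyte-like cells in replicate 1 and in cycling-like cells in replicate 2 and shortest in deep crypt secretory-like cells; their red part is tallest in cycling-like cells, at 510.2 and 403.

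In the comparison of cycling-like cells with the mean of the 4 other classes, 12 of the 28 tested members passed an adjusted p of 0.05, 10 higher and 2 lower. Among all 8020 genes 18.9% passed, 10.6% higher and 8.38% lower. Of the 10 tested replacement genes 7 rose and none fell, with a median log2 fold change of 0.98; of the 18 tested Hist genes 3 rose and 2 fell, with a median of 0.44, beside -0.02 over all genes. With total UMIs in place of TMM factors, the median of all genes shifted by 0.29, the share of calls that were higher was 79.1% in place of 55.8%, and 12 members rose and 2 fell.

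H2afx encodes H2A.X, which is phosphorylated beside DNA breaks; its gene is known to give stem-loop mRNA while DNA is copied as well as polyadenylated mRNA. It had 246 and 224 CPM in cycling-like cells. Its level was 52.2 and 39.1 CPM in crypt-like, 24.2 and 31.7 in goblet-like, 44.7 and 49.9 in deep crypt secretory-like and 9.74 and 7.26 CPM in colonocyte-like cells. Both cycling-like sums were therefore above all 8 others, by a log2 fold change of 2.84 ± 0.18, adjusted p = 9.28e-26. H2afz and H2afv encode the H2A.Z proteins, which mark gene starts and regulatory elements. H2afz had 462 and 605 CPM in cycling-like, 309.7 and 269 in crypt-like, 116 and 119.9 in goblet-like, 238 and 259 in deep crypt secretory-like and 70.7 and 82.5 CPM in colonocyte-like cells, a log2 fold change of 1.43 ± 0.13, adjusted p = 2.47e-17. H2afv had 264 and 199 CPM in cycling-like, 177 and 97.9 in crypt-like, 53.3 and 65.3 in goblet-like, 102 and 83.2 in deep crypt secretory-like and 55.5 and 45.3 CPM in colonocyte-like cells, a log2 fold change of 1.28 ± 0.16, adjusted p = 1.59e-10. For both genes the cycling-like sums lay above all others, and the colonocyte-like sums were at or near the bottom.

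H2afy, the gene of macroH2A, a large variant linked with silent chromatin, rose less, by a log2 fold change of 0.69 ± 0.14, adjusted p = 6.88e-05. It had 305 and 253 CPM in cycling-like, 247 and 220.2 in crypt-like, 108 and 93.5 in goblet-like, 217 and 190.3 in deep crypt secretory-like and 84.0 and 84.3 CPM in colonocyte-like cells, so that cycling-like and crypt-like sums lay close together. H2afj, which encodes H2A.J, did not follow this order. It had 103 and 148 CPM in cycling-like, 96.3 and 132 in crypt-like, 66.9 and 93.5 in goblet-like, 133 and 179 in deep crypt secretory-like and 47.6 and 52.6 CPM in colonocyte-like cells. Its cycling contrast gave 0.13 ± 0.18, adjusted p = 0.719 with a 95% interval of -0.22 to 0.49.

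The H3 variant genes held the most UMIs, and their changes were small. H3f3b had 1455 and 1357 CPM in cycling-like, 974 and 741 in crypt-like, 802 and 705 in goblet-like, 933 and 913 in deep crypt secretory-like and 597 and 572 CPM in colonocyte-like cells, and rose by a log2 fold change of 0.58 ± 0.10, adjusted p = 1.85e-06. H3f3a had 1362 and 1207 CPM in cycling-like, 1276 and 1064 in crypt-like, 752 and 575 in goblet-like, 1040.0 and 878 in deep crypt secretory-like and 856 and 709 CPM in colonocyte-like cells. Its log2 fold change of 0.27 ± 0.10, adjusted p = 0.053 missed the threshold. Under median-ratio size factors, total UMIs and both other resolutions the adjusted p was between 1.71e-07 and 0.0419. At both other resolutions, however, the comparison was a different one, as crypt-like cells were not among the classes set against cycling-like cells. In the main result the crypt-like sums of H3f3a, 1276 and 1064 CPM, lay nearest to the cycling-like ones. The values from those resolutions therefore do not bear on the main contrast. The call of H3f3b was lost without the library block (adjusted p = 0.102).

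H1f0, a linker histone gene known for accumulating in cells that stop dividing, was highest in the cycling-like class. It had 266 and 273 CPM in cycling-like cells, against 129.9 and 95.4 in crypt-like, 118 and 84.7 in goblet-like, 120.3 and 128 in deep crypt secretory-like and 45.8 and 48.1 CPM in colonocyte-like cells, a log2 fold change of 1.27 ± 0.15, adjusted p = 3.75e-11. Both cycling-like sums were above all others, and both colonocyte-like sums were below all others. H1fx, another linker histone gene, with 30 UMIs in all, also rose (3.21 ± 0.89, adjusted p = 0.00413), on 3 and 6 UMIs in the cycling-like sums. In replicate 1 its level was higher in crypt-like cells, at 6.96 CPM, than in cycling-like cells, at 4.53 CPM. H1fx is named because it was called, after its values were seen.

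**Figure D2:**
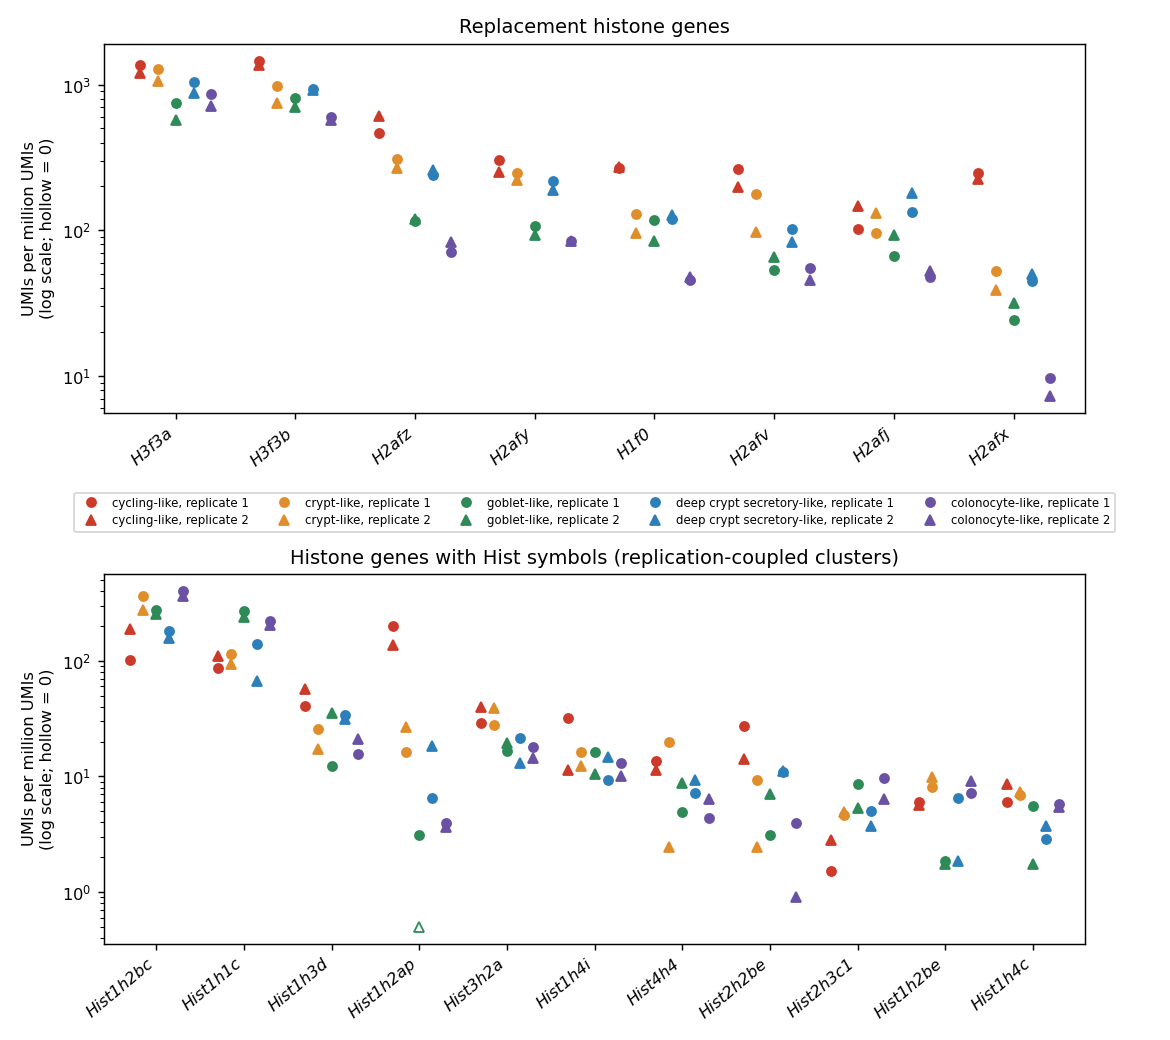
Level of the 19 histone genes with at least 50 UMIs in UMIs per 1000000 UMIs (log axis), replacement genes above and Hist genes below; colours are cell classes, circles replicate 1 and triangles replicate 2, and a hollow symbol is a count of 0. H2afx and Hist1h2ap stand apart in cycling-like cells, at 246 and 224 and at 199 and 136, and Hist1h2bc is lowest there in replicate 1, at 101.

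Hist1h2ap, an H2A gene of the large histone cluster, had the largest fold change of the tested members. It had 199 and 136 CPM in cycling-like cells, from 132 and 48 UMIs. Crypt-like cells had 16.2 and 26.9 CPM, goblet-like 3.10 and 0, deep crypt secretory-like 6.48 and 18.5 and colonocyte-like cells 3.97 and 3.63 CPM; the count of 0 among the goblet-like cells of replicate 2 allows up to 5.29 CPM. Both cycling-like sums were above all others, by a log2 fold change of 4.40 ± 0.25, adjusted p = 7.14e-29. Its UMIs were concentrated in few cells: 310 UMIs lay in 156 barcodes, while the 320 UMIs of Hist1h3d, an H3 gene, lay in 266.

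Hist2h2be, an H2B gene, had 27.2 and 14.2 CPM in cycling-like cells, against 9.28 and 2.45 in crypt-like, 3.10 and 7.05 in goblet-like, 10.8 and 11.1 in deep crypt secretory-like and 3.97 and 0.907 CPM in colonocyte-like cells. It rose by a log2 fold change of 1.70 ± 0.45, adjusted p = 0.00231, and the call was lost when all sums were thinned to equal depth (adjusted p = 0.0901). Hist1h1b, a linker H1 gene with 43 UMIs, was also called higher (2.32 ± 0.65, adjusted p = 0.0049), on 13 and 1 UMIs in the cycling-like sums. Replicate 1 alone gave 4.44 and replicate 2 alone -0.92 for it, so its direction rests on replicate 1; it too is named after its values were seen. Hist1h3d had 40.8 and 56.8 CPM in cycling-like cells, against 25.5 and 17.1 in crypt-like, 12.4 and 35.3 in goblet-like, 33.8 and 31.4 in deep crypt secretory-like and 15.5 and 20.9 CPM in colonocyte-like cells, a log2 fold change of 0.75 ± 0.29, adjusted p = 0.0553, which did not pass. The H4 genes Hist1h4c, Hist1h4i and Hist4h4, the H2A gene Hist3h2a, the H2B gene Hist1h2be and the H3 gene Hist2h3c1 did not pass either, with log2 fold changes of -1.85 to 0.60 and standard errors of 0.32 to 0.86.

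The most abundant Hist genes fell in cycling-like cells. Hist1h2bc had 101 and 187 CPM in cycling-like cells, against 363 and 274 in crypt-like, 273 and 256 in goblet-like, 180.0 and 157 in deep crypt secretory-like and 399 and 365 CPM in colonocyte-like cells, a log2 fold change of -1.30 ± 0.17, adjusted p = 5.08e-10. Cycling-like cells were lowest in replicate 1, and in replicate 2 they lay between deep crypt secretory-like and goblet-like cells; the change was -1.84 in replicate 1 alone and -0.69 in replicate 2 alone. Hist1h1c had 86.0 and 111 CPM in cycling-like cells, against 114 and 93.0 in crypt-like, 270.2 and 238 in goblet-like, 138 and 66.5 in deep crypt secretory-like and 219 and 205 CPM in colonocyte-like cells, a log2 fold change of -1.02 ± 0.19, adjusted p = 8.93e-06. It was low in cycling-like, crypt-like and deep crypt secretory-like cells alike, whose sums overlapped, and high in goblet-like and colonocyte-like cells; it fell by 1.33 on the log2 scale in replicate 1 alone and by 0.51 in replicate 2 alone.

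The levels also differed among the cycling-like cells. Each barcode was thinned to 1000 UMIs and placed in a bin by its UMIs of 46 DNA replication genes; Chek1 was left out of the 47 after its values were seen, because its row was not highest in cycling-like cells. The bins of 0 to 2, 3 to 5 and at least 6 UMIs held 47 and 22, 34 and 13 and 17 and 5 cells of replicates 1 and 2, so the last bin of replicate 2 is thin. Hist1h2ap had 119.8 and 64.8 CPM in the lowest, 258 and 148 in the middle and 305 and 481 CPM in the highest bin. The 65 Hist genes other than Hist1h2ap, Hist1h2bc and Hist1h1c did not share this order: together they had 337 and 255, 316 and 317 and 217 and 217 CPM, lowest in the highest bin of both libraries, also with Chek1 counted. Hist1h2bc ran opposite to Hist1h2ap, with 155 and 255 CPM in the lowest, 53.3 and 106 in the middle and 49.2 and 24.1 CPM in the highest bin. The 24.1 CPM of replicate 2 lies below the 72.2 CPM that a count of 0 would allow in the same bin. The fall of Hist1h2bc in replicate 2 therefore rests on its lower bins. With Chek1 counted, Hist1h2ap kept its order. Hist1h2bc then kept its own in replicate 1 only, with 158 and 171, 51.7 and 255 and 49.9 and 50.9 CPM. H2afx was at 239.7 and 208, 283 and 264 and 177 and 217 CPM and H2afz at 473 and 592, 447 and 582 and 463 and 722 CPM over the same bins, with no order shared by both libraries. H1f0 was at 303 and 329, 242 and 190.3 and 207 and 169 CPM, lower in each bin than in the one before in both libraries; with Chek1 counted it was at 299.9 and 249, 245 and 339.9 and 216 and 153 CPM, an order kept in replicate 1 only. Hist1h3d was at 56.8 and 60.2, 32.8 and 74.0 and 9.84 and 0 CPM, with the lowest values in the highest bin of each library. The last 0 allows up to 72.2 CPM, above the 60.2 CPM of the lowest bin, so no order is read for Hist1h3d in replicate 2.

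**Figure D3:**
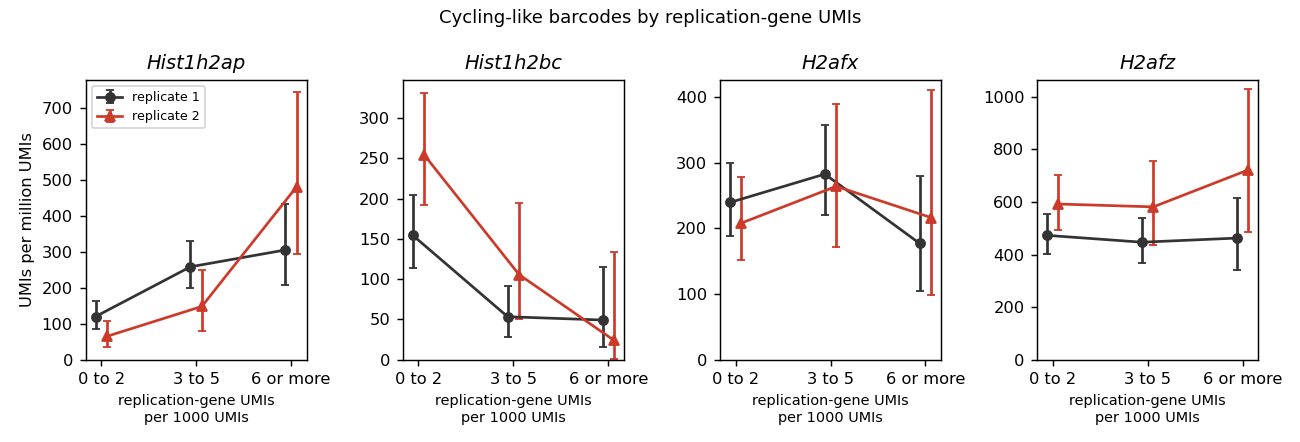
Level of 4 histone genes in UMIs per 1000000 UMIs in cycling-like cells, by the number of DNA replication UMIs (Chek1 not counted) among 1000 UMIs of a barcode; black circles are replicate 1, red triangles replicate 2, and bars are 95% Poisson intervals that cover counting error only. Hist1h2ap is highest in the last bin, at 305 and 481, Hist1h2bc is lowest there, at 49.2 and 24.1, and H2afx and H2afz show no shared order.

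Crypt-like cells, compared with the mean of the goblet-like, deep crypt secretory-like and colonocyte-like classes, showed part of the cycling pattern. Of the 28 tested members 6 rose and 1 fell, while 19.3% of all genes passed, 9.18% higher and 10.1% lower. H2afz rose by a log2 fold change of 0.84 ± 0.14, adjusted p = 7.77e-07, H2afv by 0.81 ± 0.18, adjusted p = 0.000195 and H2afy by 0.63 ± 0.15, adjusted p = 0.000488. Hist1h2ap rose as well (1.79 ± 0.45, adjusted p = 0.00122), from 14 and 11 UMIs, by 1.53 in replicate 1 alone and 3.28 in replicate 2 alone. Its crypt-like sums of 16.2 and 26.9 CPM overlapped the deep crypt secretory-like sums of 6.48 and 18.5 CPM. Hist1h1c fell (-1.12 ± 0.18, adjusted p = 1.8e-07). The rise of H2afx (0.75 ± 0.26, adjusted p = 0.0275) was lost in 5 of the alternatives, 1 of which, without the doublet filter, compares the other cells that then carried the name, and the crypt-like sums of 52.2 and 39.1 CPM overlapped the deep crypt secretory-like sums of 44.7 and 49.9 CPM. H1fx also passed (3.46 ± 1.06, adjusted p = 0.0113), on 6 and 1 UMIs in the crypt-like sums. H1f0 (0.12 ± 0.18, adjusted p = 0.725), H3f3b (-0.12 ± 0.11, adjusted p = 0.536) and Hist1h2bc (-0.01 ± 0.14, adjusted p = 0.978) did not pass; the 95% interval for Hist1h2bc was -0.29 to 0.27. With total UMIs in place of TMM factors the median of all genes shifted by 0.33, the share of calls that were higher was 76.7% in place of 47.6%, and 9 members rose and 1 fell.

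Within the crypt-like class, Hist1h2bc fell over the bins of replication UMIs without Chek1, while Hist1h2ap was highest in the last bin only. The whole class held 14 and 11 UMIs of Hist1h2ap, so its lower bins rest on few UMIs. Bins of 0, 1 to 2 and at least 3 replication UMIs held 36 and 16, 72 and 21 and 45 and 12 cells. Hist1h2bc had 534 and 392 CPM in the lowest, 395 and 241 in the middle and 161 and 139 CPM in the highest bin. Hist1h2ap had 10.1 and 6.53, 7.01 and 12.3 and 38.1 and 85.5 CPM there, highest in the last bin of each library. With Chek1 counted, Hist1h2ap was again highest in the last bin, and Hist1h2bc had 663 and 108, 408 and 413 and 182 and 170.2 CPM, an order kept in replicate 1 only, where the lowest bin of replicate 2 held 3 cells.

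The secretory classes (mean of goblet-like and deep crypt secretory-like) were compared with colonocyte-like cells. Of the 28 tested members 6 rose, all of them replacement genes, and 4 fell, all of them Hist genes. Among all genes 36.1% passed, 17.6% higher and 18.5% lower. The number of members called was thus near that of any genes, and no split by histone kind is read from these calls. The replacement genes H3f3a (-0.17 ± 0.11), H2afy2 (-0.61 ± 0.71) and H1fx (-1.92 ± 1.42) had negative log2 fold changes that did not pass, and Hist genes such as Hist2h2be (0.92 ± 0.55) and Hist1h3d (0.34 ± 0.28) had positive ones that did not pass. The median log2 fold change was 0.44 over the 10 replacement genes and -0.20 over the 18 Hist genes, beside 0.01 over all genes. H2afx rose by 1.75 ± 0.29, adjusted p = 2.13e-07, H1f0 by 1.08 ± 0.18, adjusted p = 3.6e-07 and H2afz by 0.97 ± 0.16, adjusted p = 1.13e-07 on the log2 scale. H2afj rose by 0.90 ± 0.18, adjusted p = 1.48e-05, H2afy by 0.58 ± 0.16, adjusted p = 0.00171 and H3f3b by 0.31 ± 0.11, adjusted p = 0.0201. The call of H3f3b was lost without the library block (adjusted p = 0.427), without the filter on low counts (0.0565) and with DESeq2 (0.0746). Hist1h2bc fell, with a log2 fold change of -1.05 ± 0.13, adjusted p = 8.13e-11, and both its colonocyte-like sums were above the secretory ones. Hist1h1c fell less (-0.56 ± 0.15, adjusted p = 0.00109): its goblet-like sums of 270.2 and 238 CPM were above the colonocyte-like sums of 219 and 205 CPM and its deep crypt secretory-like sums of 138 and 66.5 CPM were below them. Hist1h2be fell by 1.53 ± 0.52, adjusted p = 0.0135 on the log2 scale, with 1.86 and 1.76 CPM in goblet-like, 6.48 and 1.85 in deep crypt secretory-like and 7.21 and 9.07 CPM in colonocyte-like cells. Hist2h2aa1, an H2A gene with 40 UMIs that is named after its values were seen, fell too (-2.02 ± 0.75, adjusted p = 0.0256).

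Between the secretory classes, goblet-like cells had 2 members higher and 3 lower than deep crypt secretory-like cells, of 28 tested. Of all genes 14.1% passed, 7.53% higher and 6.53% lower. The number of members called was thus near that of any genes, and no split by histone kind is read from these calls. Both members that rose were the abundant Hist genes, Hist1h1c (1.58 ± 0.19, adjusted p = 3.32e-11) and Hist1h2bc (0.98 ± 0.17, adjusted p = 5.48e-06). All 3 that fell were replacement H2A genes, H2afz (-0.73 ± 0.18, adjusted p = 0.00106), H2afy (-0.67 ± 0.18, adjusted p = 0.00466) and H2afj (-0.63 ± 0.20, adjusted p = 0.0221). Goblet markers summed to 176142 and 150577 CPM in goblet-like cells, against 34343 and 29167 CPM in deep crypt secretory-like cells, and their part in these differences was not tested. With total UMIs in place of TMM factors the median of all genes moved to -0.38, the share of calls that were higher was 22.8% in place of 53.5%, and 2 members rose and 7 fell; Hist1h1c and Hist1h2bc rose under both scalings. Without the library block only Hist1h1c was called.

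**Figure D4:**
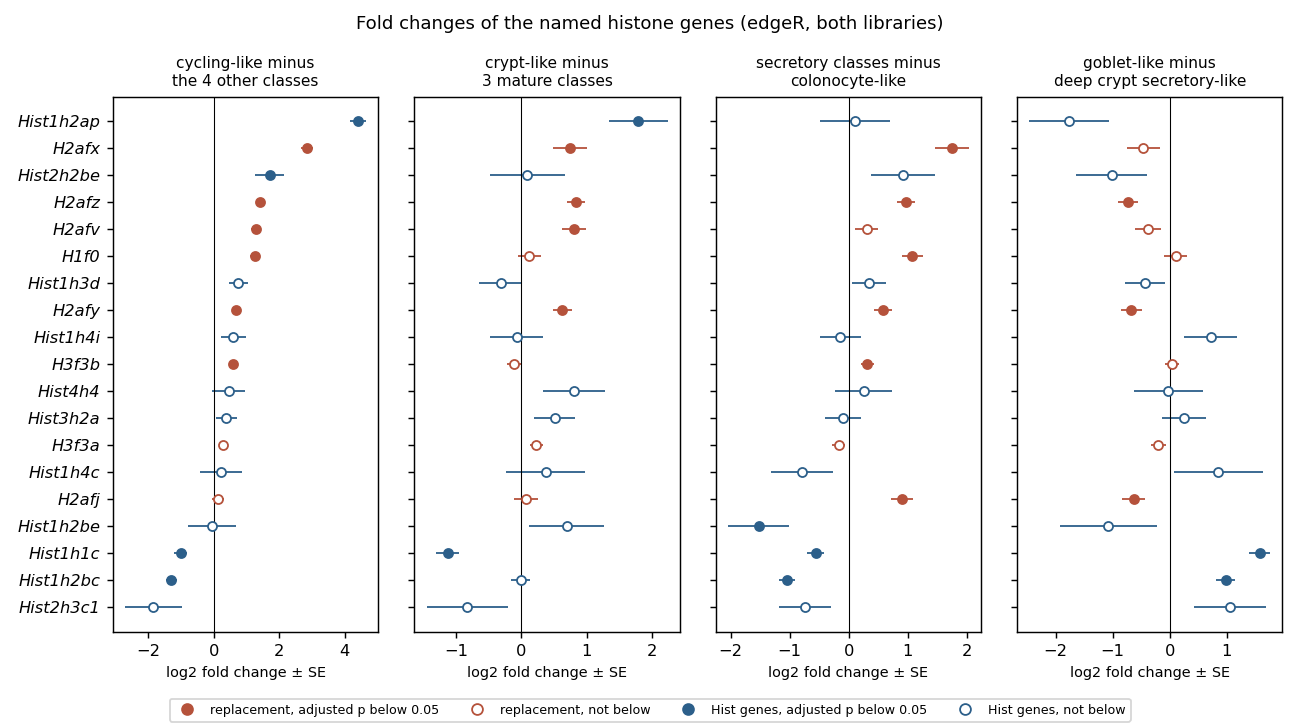
Log2 fold change ± SE of the 19 histone genes with at least 50 UMIs in the 4 comparisons; red points are replacement and blue points Hist genes, filled where the adjusted p was below 0.05. In cycling-like cells Hist1h2ap (4.40 ± 0.25) and H2afx (2.84 ± 0.18) lie farthest to the right. In the secretory classes the filled red points lie right of 0 and the filled blue points left of it. The number of members called there was near that of any genes, so no split by histone kind is read from them.

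The goblet-like class held 2 clusters that differed in the same Hist genes; these values are descriptions without a test. The cluster led by Clca1 and Zg16 had 345 and 285 CPM of Hist1h2bc and 329 and 283 CPM of Hist1h1c. The cluster led by Best2 and Rep15 had 172 and 176 CPM of Hist1h2bc and 187 and 117 CPM of Hist1h1c, near the deep crypt secretory-like levels of 180.0 and 157 and 138 and 66.5 CPM. H2afy was at 86.7 and 82.2 CPM in the first and 138 and 124 CPM in the second cluster. The larger colonocyte-like clusters, led by Tgm3 and by Emp1, were close to each other, with 430.5 and 362 and 372 and 368 CPM of Hist1h2bc and 70.7 and 70.2 and 69.6 and 96.3 CPM of H2afz.

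Shares of barcodes with a UMI were taken after every barcode was thinned to 1000 UMIs. Hist1h2ap was found in 18 of 138, 13.0% with a 95% interval of 7.92 to 19.8%, of cycling-like barcodes over both libraries (exact binomial interval, counting error only); it was 16 of 98 in replicate 1 (16.3%) and 2 of 40 in replicate 2 (5%, interval 0.611 to 16.9%). Its share was 2.48% in crypt-like, 0.271% in goblet-like, 1.23% in deep crypt secretory-like and 0.57% in colonocyte-like barcodes. In T cell-like barcodes, which are not epithelial, 1 of 62 (1.61%, interval 0.0408 to 8.66%) had a UMI; this interval holds the shares of all 4 classes other than the cycling-like one, so these shares are not told apart from it. Counting all UMIs, 49.3% of the cycling-like barcodes (median 7015.5 UMIs) held Hist1h2ap. H2afx was found in 27 of 138, 19.6% with a 95% interval of 13.3 to 27.2%, of cycling-like barcodes, and in 5.94% of crypt-like, 2.17% of goblet-like, 4.60% of deep crypt secretory-like and 0.997% of colonocyte-like barcodes. In T cell-like barcodes it was 4.84% (interval 1.01 to 13.5%), too few barcodes to set a background level. Hist1h2bc was found in 13 of 138, 9.42% with a 95% interval of 5.11 to 15.6%, of cycling-like barcodes, and in 20.8% of crypt-like, 21.4% of goblet-like, 12.3% of deep crypt secretory-like and 28.3% of colonocyte-like barcodes. In replicate 2 alone its shares were 5% in cycling-like, 11.8% in goblet-like and 13.9% in deep crypt secretory-like barcodes, an order unlike that of its levels there (187, 256 and 157 CPM), so no order is read from these shares. It was found in 4.84% of T cell-like barcodes, whose median was 1676 UMIs before thinning.

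Genes that work with histones were taken from 3 lists; they are given by counts and by the 3 largest changes of each in cycling-like cells. Over all genes tested, 10.6% rose and 8.38% fell in cycling-like cells, with a median log2 fold change of -0.02. Of 31 histone chaperone genes in the table, whose proteins carry histones and place them on DNA, 15 rose and 1 fell there. Their median log2 fold change was 0.64. Asf1b, a carrier of H3 and H4, rose by 3.33 ± 0.38, adjusted p = 5.14e-12 on the log2 scale, with 46.8 and 56.8 CPM in cycling-like and 2.52 and 3.63 CPM in colonocyte-like cells. Nap1l1, a carrier of H2A and H2B, rose by 2.35 ± 0.20, adjusted p = 1.12e-18, and Npm3, of the nucleoplasmin family, by 2.27 ± 0.27, adjusted p = 2.61e-11. Mcm2 was the member that fell (-0.50 ± 0.18, adjusted p = 0.0433). Of 18 genes of histone mRNA processing 6 rose and none fell, with a median of 0.55: Srrt (1.35 ± 0.23, adjusted p = 1.06e-06) and Ncbp1 (0.93 ± 0.25, adjusted p = 0.00258), which act at the mRNA cap, and Eri1 (1.10 ± 0.22, adjusted p = 5.26e-05), an exonuclease of the histone stem-loop, changed most. Slbp, the protein that binds that stem-loop, gave 0.49 ± 0.22, adjusted p = 0.112. With DESeq2 and without the library block, 2 of these 18 genes rose. Of 47 DNA replication genes 31 rose and 1 fell, with a median of 1.29; Tk1 (3.94 ± 0.24, adjusted p = 1.77e-26), Rrm2 (2.61 ± 0.25, adjusted p = 1.41e-15) and Mcm5 (2.40 ± 0.22, adjusted p = 3.3e-16), of nucleotide supply and of the replicative helicase, changed most. Chek1 was the replication gene that fell (-0.59 ± 0.12, adjusted p = 2.87e-05); its row had 269 and 900.1 CPM in cycling-like and 447 and 1740.3 CPM in colonocyte-like cells, several times higher in replicate 2 than in replicate 1.

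The lists gave the following counts in the other comparisons, of 31 chaperone, 18 processing and 47 replication genes tested. In crypt-like cells 10 chaperone, 5 processing and 26 replication genes rose and none fell, where 9.18% of all genes rose and 10.1% fell. In the secretory classes against colonocyte-like cells, 14 chaperone genes rose and 3 fell, 6 processing genes rose, and 17 replication genes rose and 6 fell, where 17.6% of all genes rose and 18.5% fell. In goblet-like against deep crypt secretory-like cells, 1 chaperone gene rose and 11 fell, 2 processing genes fell, and 2 replication genes rose and 16 fell, where 7.53% of all genes rose and 6.53% fell.

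The 8 members of testis or egg type held 35 UMIs in all, and none passed the filter. Hist1h2aa had 9 UMIs, H1foo 8, Hist1h1t 7, H1fnt and H2afb1 3 each, H2afb2 and Hist1h2ba 2 each, and H2afb3 1. Among the other Hist rows under 50 UMIs, the replication-coupled H1 genes Hist1h1a, Hist1h1d and Hist1h1e had 8, 21 and 21 UMIs, and the abundant Hist1h1c had 2240. Of the 14 rows with 20 to 49 UMIs, 3 were called in at least 1 comparison (H1fx, Hist1h1b and Hist2h2aa1), each on few UMIs per sum. Without the filter on low counts 73 members could be tested in the cycling comparison, and 15 were called.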

How the data were processed

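The deposited tables hold UMI counts per gene and barcode, which the authors left without normalization; whole numbers were found in every column. Per the labels' protocols, cells were encapsulated by inDrop and RNA was amplified by CEL-Seq, and the submitters' processing notes list the GRCm38 mouse and GRCh38 human builds. How reads were aligned, counted and annotated is not stated there. The members and lists were chosen with earlier results of these data known.

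Doublets (the top 5% by simulated-pair score) were left out. Genes were divided by a hash of their symbol into 12717 clustering and 12787 readout genes, with all histone genes and lists among the latter and markers among the former. The 1500 most variable clustering genes gave 30 components and Leiden clusters at resolution 1 (leidenalg 0.10.2), named from the marker lists; a name needed 3 detected markers and a marker score of 0.75 or more. UMIs were summed per library and class. Readout genes with at least 20 UMIs over the 10 sums were tested with edgeR 4.0.16 (quasi-likelihood test, TMM, library as block, 4 residual degrees of freedom, common dispersion 0.0106) and Benjamini-Hochberg adjustment over 8020 genes. The block pairs sums of the same library by construction. SE is the absolute log2 fold change divided by the root of the F statistic, and intervals are 1.96 SE to each side. The fit was run on simulated sums with a preset dispersion, no library effect and few changed genes, a setting simpler than the data. Of genes with a true log2 change of 1 in cycling-like sums 26 of 58 were called, and of -1, 11 of 46. For a change of 2 it was 37 of 43, for -2 it was 21 of 50 and for 0 it was 6 of 7622. A change that did not pass may therefore still be present. Named genes are the members with at least 50 UMIs over both libraries, germ-type members, and the 3 largest changes of each other list with 1 direction in both libraries. Alternatives were median-ratio factors, total UMIs, no filter, no block, DESeq2 1.42.0, no doublet filter, resolutions 0.5 and 2, thinning, all UMIs, and each library left out. Total UMIs were added after seeing the data. Leaving Chek1 out of the replication bins was also chosen after seeing the data, so the bins with Chek1 are given beside them.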

Additional observations from a re-analysis of the deposited data

How the results depend on the processing

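The count of called members in cycling-like cells was 12 of 28 and lay between 9 and 15 in every alternative run, but of unlike numbers tested. The 15 came without the filter on low counts, where 1432 of 12082 genes passed, beside 1519 of 8020 in the main result. DESeq2 called 7 higher and 2 lower, with no adjusted p for 14 of the 28 members, where 1048 of 8020 genes passed. In the other comparisons the count depended more on the setting. With sums thinned to equal depth, 4 members were called in crypt-like cells (7 in the main result), 6 in the secretory classes (10) and 3 in goblet-like cells (5). Thinning left 5986 genes tested in place of 8020 and some members without a test. Its counts of members and of all genes are thus of fewer tests. Without the replicate block, 6 were called in the secretory classes and 1 in goblet-like cells. With total UMIs 9 were called in goblet-like cells, where 1611 of 8020 genes passed. Over all genes, dropping the block left 932 calls in cycling-like (1519), 872 in crypt-like (1547) and 501 in goblet-like cells (1128); DESeq2 left 976 in crypt-like, 1849 in the secretory classes (2896) and 661 in goblet-like cells; thinning left 1025 in crypt-like, 1584 in the secretory classes and 654 in goblet-like cells. DESeq2 gave no adjusted p for 8 to 14 of the 28 members, H1fx, Hist1h1b and Hist2h2be among them. At resolutions 0.5 and 2 no crypt-like class had 10 cells in each library, so that comparison was not run and cycling-like cells were set against 3 classes. The 43 fold changes followed were all called ones and, in the cycling comparison, also named members that had no call to lose. A call was lost for 11 of 43 without the block, 7 of 35 when thinned and 4 of 34 with DESeq2. It was lost for 2 of 43 without the filter on low counts and 1 of 43 without the doublet filter. Rows without a test when thinned or without an adjusted p in DESeq2 are not counted, so these shares understate the loss. DESeq2 called 4 higher and 1 lower in crypt-like cells, 5 and 2 in the secretory classes and 2 and 2 in goblet-like cells. Against the SD of the values from each library alone, 18 of 43 moved by more without replicate 1 and 8 of 43 without replicate 2. Without the doublet filter the crypt-like name went to another cluster, of 51 and 13 cells led by Cdkn1c, Cdca7 and Rgcc with the tuft genes Sh2d6 and Dclk1 among its leading genes, so crypt-like values under that setting are of other cells. The rise of H2afx in crypt-like cells was lost without the doublet filter (adjusted p = 0.505), the count filter (0.0555) or the block (0.119), when thinned (0.147) and with DESeq2 (0.065); over all alternatives with a test its adjusted p ranged from 0.000626 to 0.505. Directions turned for Hist1h1b without replicate 1 (-0.92, against 4.44 without replicate 2), and, among changes that had not passed, for Hist1h2be with total UMIs (0.22), at resolution 0.5 (0.17) and at resolution 2 (0.32), and for Hist1h4c without the doublet filter (-0.28). The cause of these changes was not tested.

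The summed Hist level moved to 713.6 CPM in cycling-like and 500.6 in crypt-like cells at resolution 2, and in goblet-like cells to 640.8 without the doublet filter, 711.2 at resolution 0.5 and 649.3 at resolution 2. The summed replacement level moved to 4045 CPM (no doublet filter) and 4084 CPM (resolution 2, where they were 40 and 7 cells) in crypt-like cells, and to 2601 CPM in deep crypt secretory-like cells at resolution 0.5. With all UMIs, shares of barcodes rose with depth: Hist1h2ap to 49.3% in cycling-like, 7.92% in crypt-like, 3.37% in deep crypt secretory-like and 2.14% in colonocyte-like barcodes; H2afx to 71.0%, 23.3%, 12.7%, 23.0% and 4.56%, and Hist1h2bc to 35.5%, 58.4%, 63.4%, 44.5% and 68.2% in cycling-like, crypt-like, goblet-like, deep crypt secretory-like and colonocyte-like barcodes. Leaving out a library leaves no residual degrees of freedom, so those fold changes have no test.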
